A study of Mus musculus with 12 samples.

Results

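The genes described here are Nodal, Gdf3, Tdgf1, Lefty1, Lefty2 and Fgf4 of the mouse, that is 2 ligands, a co-receptor and 2 inhibitors of the Nodal pathway together with a fibroblast growth factor. They were taken as every probe set (a group of short array probes against a transcript) of the deposited table whose annotation names a single gene and that gene is 1 of these symbols, which gave 11 of 45101 probe sets for 6 genes. RNA was measured on 12 Affymetrix expression arrays with a single biotin label, 3 arrays for each of 4 groups of cells labelled as germ cells or as germ cell-like. Spermatid-like cells (SLC) were derived in culture, and round spermatids (RS) came from the testis of BDF1 males at 3 weeks of age. Primordial germ cell-like cells (PGCLC) were taken at day 6 of differentiation in culture, and primordial germ cells (PGC) came from the genital ridge of BDF1 male fetuses at E12.5. All cells were collected by FACS, for which the labels name no gate, and for the 2 cultured groups they name neither a starting cell line nor a strain. The design sets cultured cells beside cells from the animal at an early and a late stage. The labels call the arrays of a group biological replicates.

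Nodal, a secreted protein of the TGF-beta family, acts on activin receptors and needs an EGF-CFC co-receptor such as Tdgf1 (also called Cripto). The signal passes through Smad2 and Smad3, which enter the nucleus with Smad4 and act at many genes with Foxh1. Lefty1 and Lefty2 are induced by the pathway and inhibit it, and Gdf3 is a related ligand that is made in pluripotent cells and the early embryo. In the mouse fetus, Nodal signalling is known to act for a short time in male germ cells. Fgf4, made by embryonic stem cells and epiblast, signals through FGF receptors to the MAP kinase cascade, and in mouse embryonic stem cells its transcription depends on Pou5f1 and Sox2 bound at an enhancer downstream of the coding exons.

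The promoters of Tdgf1, Fgf4 and Nodal are shown because Tdgf1 and Fgf4 rose together in PGCLCs and Nodal was not called there. Each sequence is the sense strand from 250 bases before the gene start to 50 bases after it, from RefSeq on build GRCm38.p6, and capitals mark matches to any of 7 motifs searched on both strands. Gdf3, Lefty1 and Lefty2 had no entry in that table.
Tdgf1, chr9:110946109-110946408, minus strand: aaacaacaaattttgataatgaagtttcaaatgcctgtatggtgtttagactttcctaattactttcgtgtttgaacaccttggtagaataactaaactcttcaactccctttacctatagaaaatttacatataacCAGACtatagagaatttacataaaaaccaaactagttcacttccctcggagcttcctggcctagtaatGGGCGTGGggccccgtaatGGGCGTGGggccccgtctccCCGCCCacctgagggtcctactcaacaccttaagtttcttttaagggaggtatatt
Fgf4, chr7:144861136-144861435, plus strand: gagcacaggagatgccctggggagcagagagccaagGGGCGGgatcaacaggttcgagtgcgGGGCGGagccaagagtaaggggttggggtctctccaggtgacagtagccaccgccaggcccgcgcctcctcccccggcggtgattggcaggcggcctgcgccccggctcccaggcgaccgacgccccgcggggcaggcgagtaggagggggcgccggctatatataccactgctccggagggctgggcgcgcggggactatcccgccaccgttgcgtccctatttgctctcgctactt
Nodal, chr10:61417722-61418021, plus strand: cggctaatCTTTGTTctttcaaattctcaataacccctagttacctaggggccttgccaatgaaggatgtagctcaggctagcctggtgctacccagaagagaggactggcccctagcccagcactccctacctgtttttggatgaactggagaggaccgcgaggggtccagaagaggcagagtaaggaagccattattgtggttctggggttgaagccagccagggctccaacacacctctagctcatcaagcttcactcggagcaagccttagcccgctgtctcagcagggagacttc
The Tdgf1 window held 4 matches, which began 113 bases before the start for the SMAD motif CAGAC, 45 and 26 bases before it for the KLF motif GGGCGTGG, and 6 bases before it for a reversed GC box GGGCGG. The Fgf4 window held 2 GC boxes, which began 214 and 188 bases before the start, and the Nodal window held 1 SOX motif CTTTGTT, which began 242 bases before it. None of these matches overlapped another. The octamer ATGCAAAT, the TATA box TATAAA and the FOXH1 motif AATCCACA had no match in the 3 windows. Only these exact letters were searched. Variants were not counted, such as the unmarked TATA-like stretch tatatata in the Fgf4 window, so no absence of a TATA element follows. Over 32851 mouse promoter windows of this length, 49.6% held the SMAD motif, 35.7% the GC box, 13.6% the TATA box, 5.85% the SOX motif, 5.33% the KLF motif, 1.74% the octamer and 0.855% the FOXH1 motif. GC content was 41.7% in the Tdgf1 window, 69.7% in the Fgf4 window and 54.0% in the Nodal window, against a median of 52.7% over all windows.

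Signals are the deposited linear values in intensity units, scaled by the authors to the same trimmed mean on every array, and the number of arrays limits their precision. The median array signal was 73.2 to 107 units. The PGCLC arrays were unlike each other. Pearson r of log2 signal over probe sets, taken with each PGC array, was 0.973 to 0.974 for replicate 2, while replicate 3 lay at 0.926 to 0.928 and replicate 1 at 0.884 to 0.885. Replicates 1 and 2 correlated at 0.914 with each other. In the other groups the arrays of a group correlated at 0.977 or more. The markers of each labelled cell type were measured as sums of signal. The 8 measured germ cell markers summed to 18829, 58296 and 39474 units on PGCLC replicates 1, 2 and 3 and to 64184 to 68328 on the PGC arrays. Ddx4, Dazl, Dppa3, Kit, Prdm1 and Dnd1 were lowest on PGCLC replicate 1. Pou5f1 differed little, with 6064 to 7054 units in PGCLCs and 6801 to 7088 in PGCs. Tfap2c went the other way, with 2695, 1058 and 1823 units in PGCLCs, against 677 to 1014 in PGCs. The markers of round spermatids (7 of 7 measured) summed to 108407 to 114316 units in SLCs and 142770 to 152025 in RS, and those of testis somatic cells (9 of 10) to 46378 to 47027 in SLCs and 2069 to 2567 in RS, with Cyp11a1 under the floor on every RS array. Results on PGCLCs are therefore given array by array, and for called genes with a PGCLC array left out where that moved the fold by over 1.5 times.

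In PGCLCs, set beside PGCs, Fgf4 and Tdgf1 rose, Lefty1 and Lefty2 fell, and Nodal and Gdf3 were not called. Fgf4 was at least 25.1-fold higher on its probe set with the highest mean and Tdgf1 7.64-fold higher, while Lefty1 was 3.32-fold lower and Lefty2 2.47-fold lower. A probe set was called at an adjusted p under 0.05 and a change of at least 2-fold in a limma fit over all 12 arrays, after values under a floor of 30.7 units were set to it. Of 11 probe sets, 10 passed the filter on low values, and 6 of the 10 were called in this comparison, 4 higher and 2 lower, where 10.8% of all probe sets tested were called, 9.47% higher and 1.37% lower. The filter asks for a signal over 92.0 units on any 3 arrays, so a gene measured in a single group passes it through that group. Fgf4 1420085_at and 1420086_x_at passed it through the PGCLC arrays alone, so their part of these counts is no separate evidence of a rise. With 1450282_at they were 3 of the 4 called higher, all of the same gene. In bulk RNA, fewer cells of a type and less RNA per cell cannot be told apart.

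Neither ligand was called in PGCLC minus PGC, and the arrays of PGCLCs lay close together on 1 probe set of each. Nodal (1422058_at) had 952, 873 and 923 units in PGCLCs, against 1110.2, 1032 and 1131 in PGCs. Every PGCLC array lay below every PGC array, by little. The log2 difference was -0.25 with an SE of 0.27 and a 95% interval of -0.85 to 0.35, and limma's adjusted p was 0.541. This SE takes in the SLC and RS arrays, with SDs of log2 signal of 0.41 and 0.57. Those of the PGCLC and PGC arrays were 0.06 and 0.07. In a limma fit of the PGCLC and PGC arrays alone the SE was 0.07 and the adjusted p 0.0958. On 1422057_at the PGCLC arrays had 397, 201 and 298 units and the PGC arrays 264, 293 and 282, a log2 difference of 0.04 with an interval of -0.52 to 0.60, and here the groups overlapped and PGCLC replicate 2 was the lowest. Gdf3 (1449288_at), the related ligand, had 1337, 1217 and 1314 units in PGCLCs, against 1582, 1435 and 1567 in PGCs. As for Nodal, its groups did not overlap and the difference was small, with a log2 value of -0.24, an SE of 0.21, an interval of -0.70 to 0.21 and an adjusted p of 0.427 in limma. Fitted on the PGCLC and PGC arrays alone, Gdf3 1449288_at had an SE of 0.07 and an adjusted p of 0.0987 in limma. Its second probe set, 1460057_at, had 376, 229 and 305 units in PGCLCs, against 298, 312 and 296 in PGCs, with a log2 difference of -0.02 and an interval of -0.49 to 0.45, and replicate 2 was again the lowest PGCLC array.

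Tdgf1 (1450989_at), the co-receptor, had 10258, 1012 and 7368 units on PGCLC replicates 1, 2 and 3, against 572, 499 and 602 in PGCs. All 3 PGCLC arrays lay above the PGC arrays, replicate 2 by 1.82-fold and replicates 1 and 3 by 18.5-fold and 13.3-fold over the PGC mean on the log2 scale. The means were 6212 ± 4730 units in PGCLCs and 557 ± 53.0 in PGCs (SD, n = 3 each), and the log2 difference was 2.93 with an SE of 0.63 (adjusted p = 0.00837, limma). It was 3.97 without PGCLC replicate 2 and 2.30 without PGCLC replicate 1.

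Lefty1 (1417638_at), an inhibitor of Nodal, had 428, 2205 and 1083 units on PGCLC replicates 1, 2 and 3, against 3611, 3460 and 2987 in PGCs. All PGCLC arrays lay below all PGC arrays, with replicate 1 the lowest. The log2 difference was -1.73 with an SE of 0.55, an interval of -2.93 to -0.53 and an adjusted p of 0.0399 in limma. This call was lost under 13 of 22 alternatives, with adjusted p up to 0.143, and the difference was -1.11 without PGCLC replicate 1 and -2.29 without PGCLC replicate 2. Lefty2 (1436227_at), the second inhibitor, had 623, 1383 and 919.9 units in PGCLCs, against 2361, 2348 and 2158 in PGCs, in the same order of replicates. Its log2 difference was -1.31 with an SE of 0.28 (adjusted p = 0.00842, limma). With a lower floor of 8.09 units its adjusted p in limma was 0.162. The 2 genes are closely related neighbours on the chromosome, and how far their probes tell them apart was not tested. Of the 4 probe sets that lay lower in PGCLCs with no overlap, 2 were thus the Lefty genes and the others those of Nodal and Gdf3 given above, where 18.6% of all probe sets lay lower without overlap.

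Fgf4 was measured by 4 probe sets, of which 1420085_at had 2119, 147 and 1469.6 units on PGCLC replicates 1, 2 and 3, against 4.29, 1.76 and 6.05 in PGCs. Every PGCLC array was above the floor and every PGC array below it, with PGCLC replicate 2 far under the other PGCLC arrays. The log2 difference after the floor was 4.65 with an SE of 0.73 (adjusted p = 0.00191, limma), and it was 5.84 without PGCLC replicate 2 and 3.92 without PGCLC replicate 1. In a limma fit of the PGCLC and PGC arrays alone its SE was 1.05 and its adjusted p 0.0712. The x_at probe set 1420086_x_at gave 2033, 146 and 1495 units in PGCLCs, against 4.09, 2.71 and 16.6 in PGCs, a rise of at least 24.8-fold, with log2 differences of 5.83 without PGCLC replicate 2 and 3.93 without PGCLC replicate 1. With a higher floor of 59.9 units the log2 differences of these 2 probe sets were 3.69 and 3.67. On 1450282_at the PGCLC arrays had 610.0, 151 and 407 units and the PGC arrays 113, 78.8 and 95.8, a 3.53-fold rise with an adjusted p of 0.0396 in limma. That call was lost under 13 of 21 alternatives, with adjusted p up to 0.147, and the log2 difference of 1.82 was 2.39 without PGCLC replicate 2 and 1.39 without PGCLC replicate 1. The probe set that did not pass the filter, 1449729_at, had 78.8, 23.8 and 82.2 units in PGCLCs, against 30.6, 10.4 and 8.21 in PGCs, with the same replicate lowest. The 4 Fgf4 probe sets measure transcripts of the same gene and are not independent. With the Tdgf1 probe set, 3 Fgf4 probe sets made up the 4 that lay higher in PGCLCs with no overlap, where 20.7% of all probe sets did. Of these, 1420085_at and 1420086_x_at passed the filter through the PGCLC arrays alone, so their part of this count is no separate evidence.

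**Figure D1:**
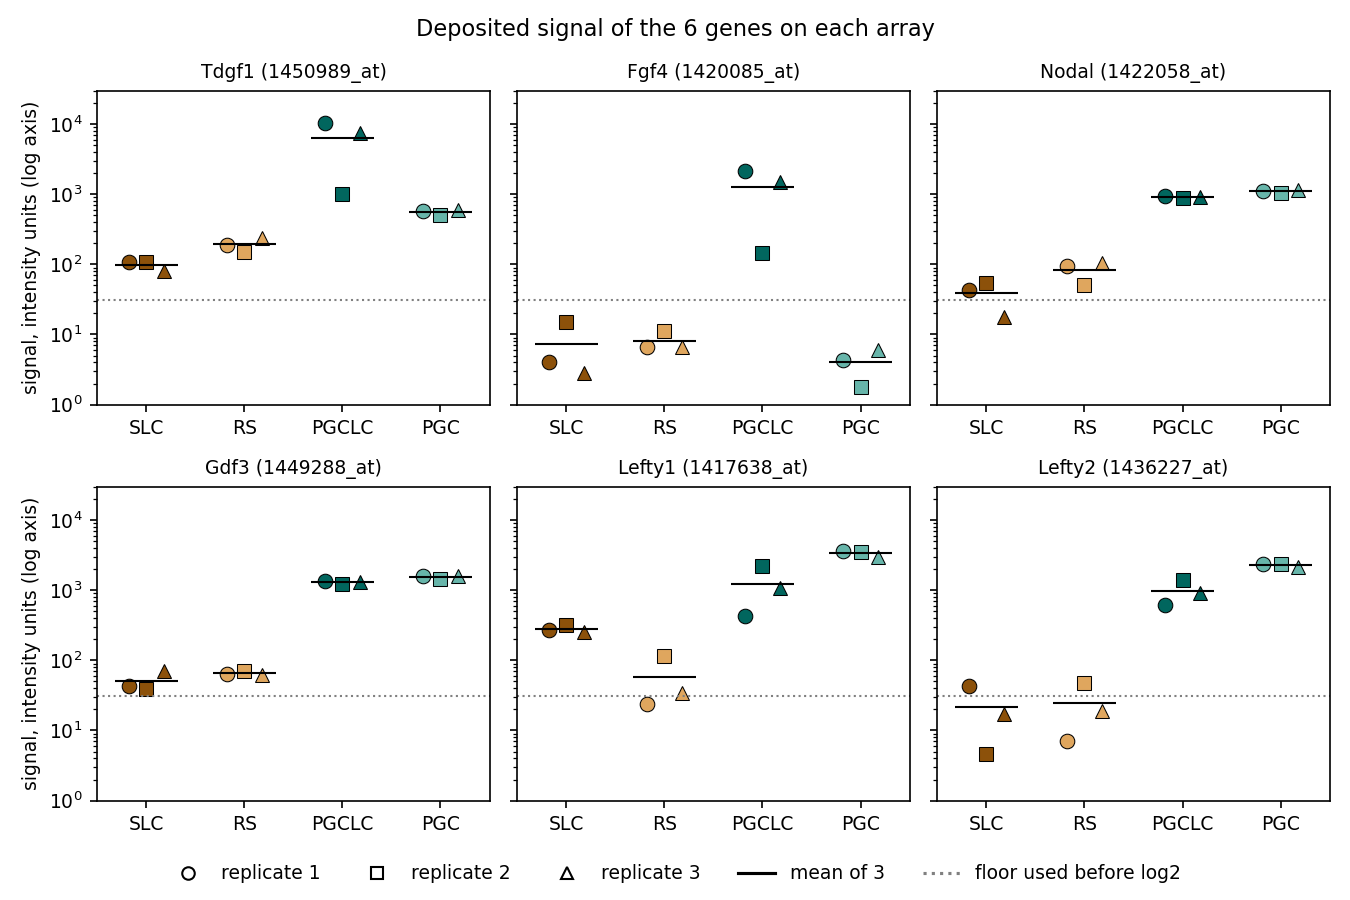
Deposited signal of each gene (the probe set with the highest mean of the gene; log axis, intensity units) on each array, by group, with the symbol giving the replicate number, bars the mean of 3 and the dotted line the floor of 30.7 units. PGCLC replicate 2 had 1012 units of Tdgf1 and 147 of Fgf4, against 572, 499 and 602 units of Tdgf1 and values under the floor for Fgf4 on the PGC arrays.

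The 3 PGCLC arrays kept the same order of distance from PGCs in Tdgf1, Fgf4 and both Lefty genes. Their correlations with the PGC arrays over probe sets, given above, had this order too, so it is not particular to these genes. On replicate 1 these lay farthest from PGCs, with log2 differences from the PGC mean of 6.11 for Fgf4 (1420085_at), 4.21 for Tdgf1, -2.96 for Lefty1 and -1.88 for Lefty2. On replicate 2 they lay nearest, at 2.26, 0.86, -0.60 and -0.73 for these genes, and replicate 3 lay between, at 5.58, 3.73, -1.63 and -1.31. For Nodal and Gdf3 no array lay more than 0.51 from the PGC mean. The arrays of Nodal 1422057_at (0.51, -0.48 and 0.10 on replicates 1, 2 and 3) and Gdf3 1460057_at (0.32, -0.40 and 0.01) nevertheless ranked as those of Tdgf1 and Fgf4, with replicate 1 highest and replicate 2 lowest. Beside this, the 10 markers of pluripotent stem cells and epiblast summed to 26520, 9766 and 21921 units on PGCLC replicates 1, 2 and 3 and to 7286 to 8110 on the PGC arrays, with Zic1 under the floor on every PGC array. The markers of fetal gonad somatic cells (10 of 10 measured) summed to 3870, 10953 and 6611 units in PGCLCs and 3870 to 4916 in PGCs, and those of blood and endothelium (8 of 9) to 4204, 17450 and 10765 in PGCLCs and 13621 to 14656 in PGCs, with Ptprc under the floor in PGCs. Within that list, chosen after its values were seen, the embryonic globin Hbb-y made up most of the sum, with 1136, 14997 and 7843 units in PGCLCs and 11299 to 12097 in PGCs. The macrophage markers Cd68 (944, 109.7 and 635 units in PGCLCs, against 60.4 to 96.2 in PGCs) and Csf1r (796, 279.7 and 601 units in PGCLCs, against 54.2 to 90.7 in PGCs) ran in the replicate order of Tdgf1 and Fgf4. Other members of that list did not run in this order. Pecam1 had 423, 975 and 580 units in PGCLCs, against 1106 to 1459 in PGCs, and Hba-x and Kdr were also lowest on replicate 1. Ptprc had 39.3, 40.4 and 13.2 units in PGCLCs, near or under the floor, and did not pass the filter. The part of any of these cell types in the differences was not tested. The number called was 6 without PGCLC replicate 2 and 4 without PGCLC replicate 1 or 3. In a limma fit of the 6 PGCLC and PGC arrays alone, 0 of 10 were called and 8 had an unadjusted p under 0.05, with a lowest adjusted p of 0.0703, where 1.30% of all probe sets were called.

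**Figure D2:**
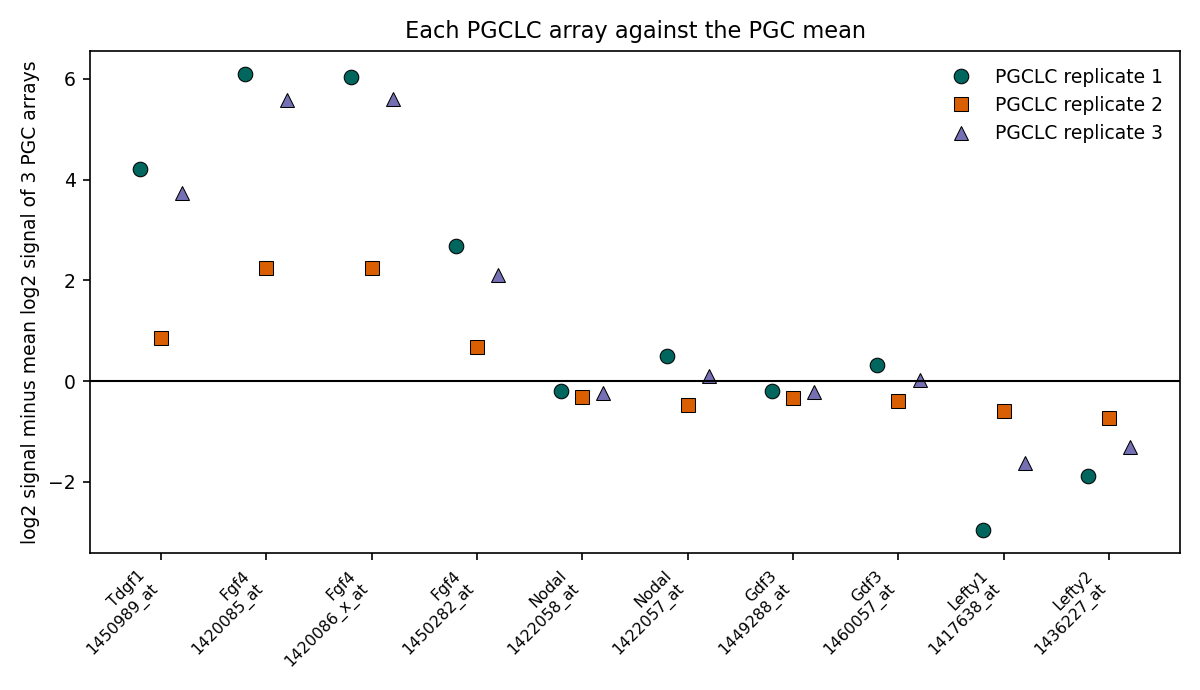
Log2 signal of each PGCLC array minus the mean log2 signal of the 3 PGC arrays (values under 30.7 units set to it), for the 10 probe sets that passed the filter. Replicate 1 lies farthest from 0 and replicate 2 nearest for Tdgf1, the Fgf4 probe sets, Lefty1 and Lefty2, while the Nodal and Gdf3 points lie within 0.51 of 0.

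In SLCs, set beside RS, Lefty1 rose 5.68-fold, and it was the single probe set of 10 called, where 28.0% of all probe sets were called, 24.0% higher and 3.96% lower. Lefty1 had 272, 318 and 257 units in SLCs, against 24.0, 116 and 34.1 in RS. All SLC arrays lay above all RS arrays, of which replicate 1 was under the floor and replicate 2 the highest. The log2 difference was 2.51 with an SE of 0.55 and an interval of 1.30 to 3.71 (adjusted p = 0.00208, limma), and the ratio of mean signals was 4.87. Without RS replicate 2 the log2 difference was 3.12, and with the higher floor it was 1.92. Among all probe sets, 34.3% lay higher in SLCs with no overlap, as Lefty1 did, and 34.3% lay lower, as 2 of the 10 did. Lefty2 had 42.9, 4.66 and 17.3 units in SLCs, against 7.01, 47.2 and 18.8 in RS, mostly under the floor in both groups, with an interval of -0.66 to 0.57 for its log2 difference. Beside the Lefty1 difference, the testis somatic markers given above summed higher in SLCs, as did the fetal gonad somatic markers, with 27364 to 28927 units in SLCs and 812 to 976 in RS, and their part in it was not tested. Most of the fetal sum in SLCs was Col3a1, with 19817 to 21275 units. Means of Amh (35.2 in SLCs, 33.6 in RS) and Dlk1 (52.2 and 56.6) differed little, and the other markers of that list had higher means in SLCs.

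Tdgf1 had 109, 107 and 79.7 units in SLCs, against 191, 149.5 and 235 in RS. The SLC arrays all lay lower, but with a log2 difference of -0.95 and an SE of 0.63 the change was not called (adjusted p = 0.220, limma, interval -2.33 to 0.44). Fitted on the SLC and RS arrays alone, the same difference had an adjusted p of 0.0142 in limma, with a change of under 2-fold. Nodal (1422058_at) had 43.2, 54.1 and 18.0 units in SLCs, against 93.6, 50.2 and 104 in RS, with an overlap at RS replicate 2. Its log2 difference of -0.92 with an SE of 0.27 had an adjusted p of 0.0124 in limma and missed the 2-fold limit. Without RS replicate 2 the difference was -1.25 and without SLC replicate 2 it was -1.11, and in both cases it was called. The Gdf3 probe set 1449288_at had 43.0, 38.7 and 71.4 units in SLCs, against 63.0, 71.1 and 61.7 in RS, which overlap. Fgf4 (1420085_at) had 4.11, 14.97 and 2.85 units in SLCs and 6.58, 11.2 and 6.62 in RS, all under the floor, so no fold is given. On 1450282_at Fgf4 had 143, 76.3 and 20.8 units in SLCs, against 58.2, 65.1 and 31.9 in RS, and the groups overlapped.

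**Figure D3:**
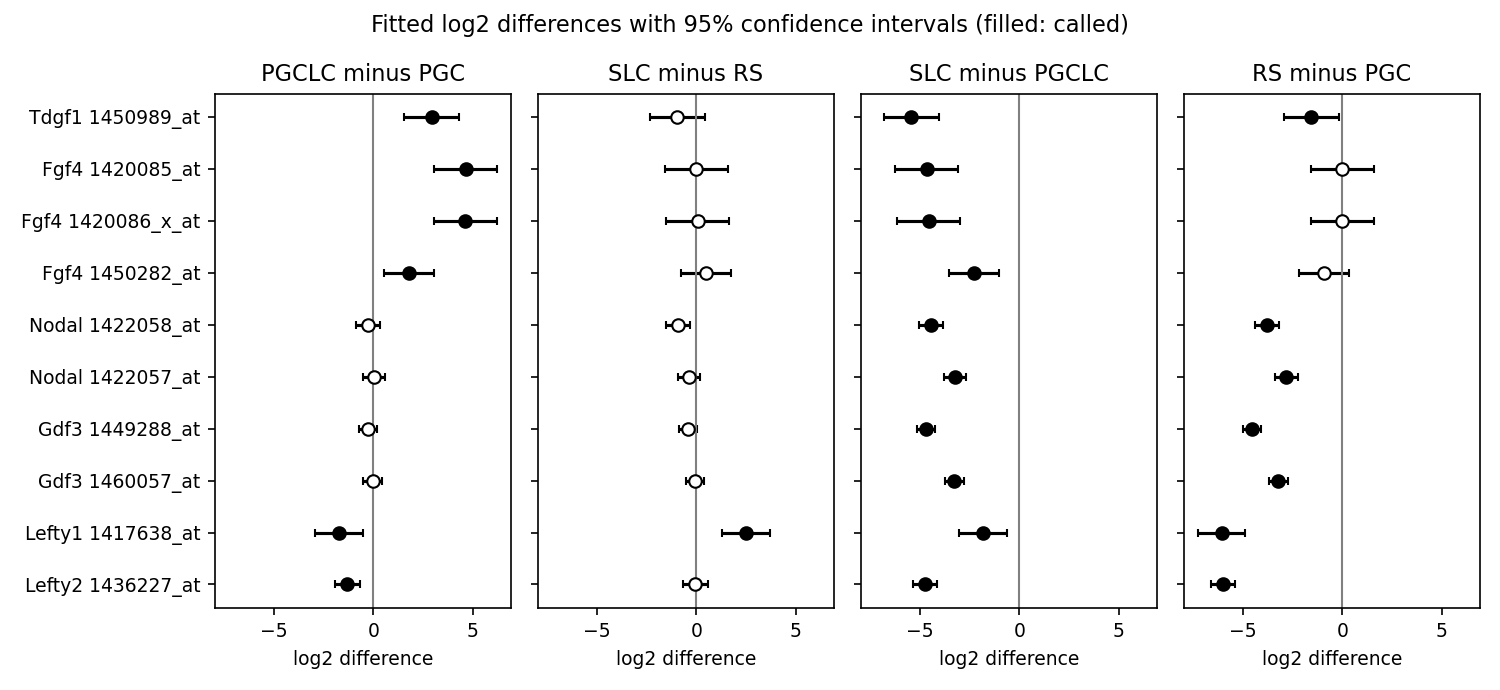
Fitted log2 differences of the 10 probe sets in 4 comparisons with 95% confidence intervals, filled points being called. PGCLC minus PGC has filled points on both sides of 0, SLC minus RS has 1 (Lefty1, at 2.51), and all points of SLC minus PGCLC lie below 0.

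In SLCs, set beside PGCLCs, all 10 probe sets fell, where 31.5% of all probe sets were called lower and 55.5% in either direction. The 10 also lay lower with no overlap, as 42.9% of all probe sets did. Fgf4 1420085_at and 1420086_x_at passed the filter through the PGCLC arrays alone. Gdf3 1449288_at and 1460057_at, Nodal 1422057_at and Lefty2 passed it through PGCLC and PGC arrays alone. For these probe sets the filter itself favoured low SLC values, so their part of the counts is no separate evidence of a fall. The least change was that of Lefty1, which was 3.58-fold lower, with means of 282 ± 31.9 units in SLCs and 1239 ± 898 in PGCLCs (SD, n = 3 each; log2 difference -1.84, SE 0.55, adjusted p = 0.00952, limma). It was -2.46 without PGCLC replicate 1 and -1.28 without PGCLC replicate 2. Lefty2 was at least 26.9-fold lower, with means of 21.6 ± 19.5 units in SLCs and 975 ± 383 in PGCLCs. Tdgf1 was 43.4-fold lower, at 98.8 ± 16.6 units in SLCs against 6212 ± 4730 in PGCLCs, and the log2 difference of -5.44 was -4.80 without PGCLC replicate 1 and -6.47 without PGCLC replicate 2. Gdf3 (1449288_at) was 26.2-fold lower, at 51.0 ± 17.8 units in SLCs against 1289 ± 63.5 in PGCLCs. Nodal (1422058_at) was at least 22.0-fold lower, and Fgf4 (1420085_at) at least 25.1-fold lower. For Fgf4 the log2 difference of -4.65 was -3.92 without PGCLC replicate 1 and -5.84 without PGCLC replicate 2. The remaining 4 probe sets of Gdf3, Nodal and Fgf4 were at least 4.82-fold to at least 23.7-fold lower. These bounds hold for the floor of 30.7 units and all 3 PGCLC arrays, and with the floor at 59.9 units the log2 differences of the 7 probe sets given as bounds were -1.95 to -3.95.

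In RS, set beside PGCs, 7 of the 10 probe sets fell and none rose, where 41.3% of all probe sets were called lower and 67.5% in either direction. Gdf3 1449288_at and 1460057_at, Nodal 1422057_at and Lefty2 passed the filter through PGCLC and PGC arrays alone, which favoured low RS values for them. Lefty1 was 67.5-fold lower, with means of 57.9 ± 50.3 units in RS and 3353 ± 326 in PGCs (SD, n = 3 each), and Lefty2 at least 64.5-fold lower, with 24.3 ± 20.6 units in RS and 2289 ± 114 in PGCs. The log2 difference of Lefty1, -6.08, was -6.69 without RS replicate 2, and at the higher floor those of Lefty1 and Lefty2 were -5.49 and -5.26. Gdf3 (1449288_at) was 23.4-fold lower, at 65.3 ± 5.09 units in RS against 1528 ± 81.0 in PGCs. Nodal (1422058_at) was 13.8-fold lower, at 82.7 ± 28.6 units in RS against 1091 ± 51.8 in PGCs. Tdgf1 fell 2.95-fold (log2 difference -1.56, SE 0.63, adjusted p = 0.0388, limma), with all RS arrays below all PGC arrays. This call was lost under 12 of 22 alternatives, which were quantile normalization (log2 difference -1.06, adjusted p = 0.164, limma), no filter, no intensity trend and the omission of any single PGC, RS or SLC array. In a limma fit of the RS and PGC arrays alone the adjusted p was 0.000208. Fgf4 was not called. On 1420085_at it was under the floor on every RS and PGC array, and on 1450282_at the log2 difference was -0.94 (adjusted p = 0.151, limma). With Fgf4 1450282_at, 8 of 10 probe sets lay lower in RS with no overlap, as 50.4% of all probe sets did, and the 1 that lay higher (32.9% of all probe sets) was 1420085_at, with all values under the floor.

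Set in order, the genes showed 4 patterns over the groups. Tdgf1 was highest in PGCLCs, then PGCs, RS and SLCs, with no overlap between neighbours. Lefty1 was highest in PGCs, then PGCLCs, SLCs and RS, again with no overlap. Nodal (1422058_at), Gdf3 (1449288_at) and Lefty2 ran from PGCs through PGCLCs to RS and SLCs, and the last 2 groups overlapped for each. For Nodal and Gdf3 the step from PGCs to PGCLCs was not called. On their probe sets 1422057_at and 1460057_at the PGC and PGCLC arrays overlapped. Fgf4 (1420085_at) lay above the floor in PGCLCs and under it in the other 3 groups, where values have no order. Over the 10 probe sets the median log2 difference was 0.01 for PGCLC minus PGC, where it was 0.02 over all probe sets, and -0.06 for SLC minus RS, where it was -0.05. It was -4.51 for SLC minus PGCLC, beside -0.30 over all, and -3.02 for RS minus PGC, beside -0.54. The medians of -4.51 and -3.02 take in probe sets that passed the filter through PGCLC or PGC arrays alone.

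The cultured and animal-derived cells were also compared between stages, by the PGCLC minus PGC difference less the SLC minus RS difference, a contrast added after the data were seen. Of 10 probe sets, 5 were called in it, 3 higher and 2 lower, where 30.1% of all probe sets were called, 9.81% higher and 20.3% lower. The value was 3.88 for Tdgf1 (SE 0.90), and the Lefty2 value was -1.26 (SE 0.40), a call lost under 8 of 21 alternatives. Most SLC and RS values of Lefty2 lay under the floor, so its value mostly restates the PGCLC minus PGC difference. For Fgf4 the value was 4.65 on 1420085_at and 4.57 on 1420086_x_at, which restates the PGCLC minus PGC difference, since the probe sets passed the filter through the PGCLC arrays alone and nearly all values of the other groups lay under the floor. For Lefty1, lower in PGCLCs and higher in SLCs, the value was -4.24 (SE 0.78, adjusted p = 0.00109, limma). Nodal (1422058_at) had 0.67 with an interval of -0.17 to 1.51, and Gdf3 (1449288_at) had 0.16 with an interval of -0.49 to 0.81.

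Other genes of the Nodal and activin pathway, 27 in all, were taken from a list of ligands, receptors, signal transducers, inhibitors and targets, and 21 of them passed the filter. In PGCLC minus PGC, 1 rose and 0 fell, where 11.8% of all genes were called, 10.2% higher and 1.58% lower, and the median log2 difference was 0.27 beside 0.005 over all genes. That gene was Fst, a secreted antagonist of activin, with 363, 151 and 211 units on PGCLC replicates 1, 2 and 3, against 130, 80.9 and 78.7 in PGCs. Its means were 242 ± 109 units in PGCLCs and 96.6 ± 29.2 in PGCs (SD, n = 3 each), with an adjusted p of 0.0228 in limma. This call was lost under quantile normalization, on the PGCLC and PGC arrays alone, and without PGC replicate 2 or 3 or PGCLC replicate 3. Lhx1, a homeobox gene and target of Nodal signals in the mouse embryo, had 109, 1535 and 605 units on PGCLC replicates 1, 2 and 3, against 1728, 1764 and 1664 in PGCs. Its log2 difference of -1.88 (SE 0.67) was not called (adjusted p = 0.0579, limma), and its PGCLC arrays ran in the order of those of Lefty1. Smad7, an inhibitor of the receptors, had a log2 difference of 0.82, under 2-fold.

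In SLC minus RS, 11 of the 21 rose and 3 fell, where 27.4% of all genes were called, 23.9% higher and 3.43% lower, and the median was 1.21 beside -0.15 over all genes. Inhba, an activin subunit, rose 65.9-fold, with 4180.1 ± 348 units in SLCs and 65.4 ± 44.5 in RS. Inhbb, the second activin subunit, rose at least 45.9-fold, with 1818 ± 65.6 units in SLCs and 31.9 ± 26.2 in RS. Pmepa1, a target and inhibitor of TGF-beta signalling, rose 27.4-fold, with 2283 ± 44.8 units in SLCs and 85.7 ± 25.4 in RS. The 3 that fell were Foxh1, Dand5, a Nodal antagonist, and Gsc. The sum of testis somatic markers given above moved with these genes, and its part in their differences was not tested. In SLC minus PGCLC, 5 rose and 9 fell, where 29.9% of all genes were called higher and 27.4% lower, with log2 differences of 5.83 for Inhba, -4.38 for the receptor Acvr2b and -3.92 for Lhx1. Lhx1 lay under the floor on every SLC array and Inhba on 1 PGCLC array, so the floor limits both values. In RS minus PGC, 3 rose and 15 fell, where 31.8% of all genes were called higher and 37.7% lower, with -5.80 for Lhx1, -5.25 for the Smad repressor Ski and 4.84 for Dand5. Here too the floor limits the values, with Lhx1 under it on every RS array, Ski on 1 RS array and Dand5 on 1 PGC array.

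Of 23 other FGF pathway genes, 16 passed the filter, and the ligands Fgf2, Fgf3, Fgf5, Fgf8, Fgf9 and Fgf17 were among those that did not. In PGCLC minus PGC, 0 were called by limma and 5 had an unadjusted p under 0.05, where 11.8% of all genes were called, and the median log2 difference was 0.11. Etv4, a transcription factor induced by FGF signals, had 91.0, 628 and 225 units in PGCLCs, against 779, 658 and 663 in PGCs (log2 difference -1.58, SE 0.54, adjusted p = 0.0530, limma). Spry2, a feedback inhibitor of the same cascade, had 2231, 785 and 1655 units in PGCLCs, against 763, 779 and 688 in PGCs (log2 difference 0.94, SE 0.29, adjusted p = 0.0365, limma), which is under 2-fold. Both were farthest from PGCs on PGCLC replicate 1 and nearest on replicate 2. The adaptor Shc1 had a log2 difference of 0.64. In SLC minus RS, 10 of the 16 rose and 0 fell, where 23.9% of all genes were called higher and 3.43% lower, with the phosphatase Dusp6 87.7-fold, the receptor Fgfr1 at least 47.9-fold and Spry2 24.3-fold higher, and the testis somatic markers summed higher in the same arrays, whose part was not tested. In SLC minus PGCLC, 7 fell and 0 rose, where 27.4% of all genes were called lower and 29.9% higher, with log2 differences of -3.77 for the transcription factor Etv5, -2.57 for the inhibitor Il17rd and -2.42 for the receptor Fgfr2. In RS minus PGC, 13 fell and 1 rose, where 37.7% of all genes were called lower and 31.8% higher, with -6.80 for Etv5, -5.37 for Dusp6 and -4.60 for Fgfr1. For Fgfr1, 2 RS arrays lay under the floor, which limits its value.

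**Figure D4:**
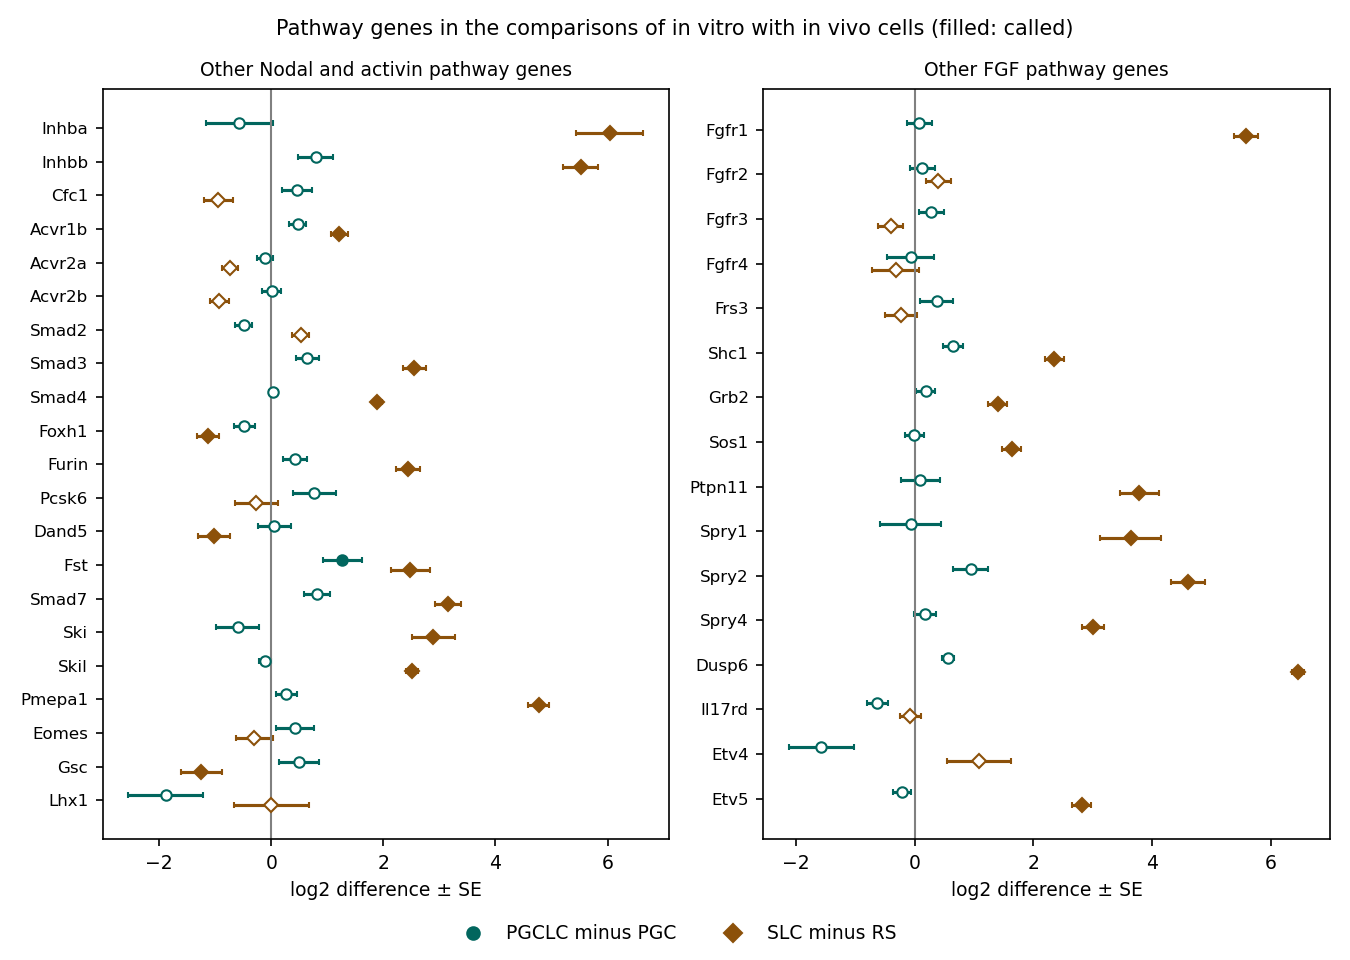
Log2 difference ± SE of the other pathway genes in PGCLC minus PGC and SLC minus RS, filled symbols being called. In PGCLC minus PGC 1 gene of both lists is filled (Fst, 1.27), while SLC minus RS has 14 filled genes in the Nodal and activin list and 10 in the FGF list.

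The pluripotency factors Pou5f1, Sox2 and Nanog were read beside Fgf4. Pou5f1 had 6064, 6286 and 7054 units in PGCLCs, against 7088, 6801 and 6865 in PGCs, and Sox2 had 9677, 6490 and 8573 units in PGCLCs, against 5925, 6083 and 5686 in PGCs. Neither was called (log2 differences -0.10 and 0.46). Nanog rose 2.16-fold, with 10147, 2985 and 8247 units in PGCLCs, against 2988, 3003 and 2769 in PGCs (adjusted p = 0.0341, limma), and its PGCLC replicate 2 lay within the PGC arrays.

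The genes most like each of the 6 were found by Pearson's r of log2 signal over the 12 arrays, which fall into 4 groups, so r mostly reads the group means. Fgf4 was most like Zic1 (r = 0.998), Sema3e (0.996) and Igfbp2 (0.989), and Zic1 had 2790.0, 207 and 2094 units on PGCLC replicates 1, 2 and 3. Zic1 was placed in the list of pluripotent stem cell and epiblast markers summed above. In that list Otx2 alone had a lower mean in PGCLCs than in PGCs, with 381, 773 and 694 units against 842 to 931. Tdgf1 was most like Crabp1 (0.990), Eras (0.988) and Gpm6a (0.988), with 11127, 1072 and 7996 units of Crabp1 on the same arrays. The patterns nearest to Lefty2 were Tgif2, Mrps27 and Orc3, each at 0.998, and those nearest to Lefty1 were Dusp14, Ctps2 and Aldh1b1, each at 0.985. Gdf3 was nearest to Slc35f2 (0.998), Ccna2 (0.996) and Ddx39a (0.995), and Nodal to Zwilch (0.995), Arvcf (0.995) and Mybl2 (0.994).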

How the data were processed

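Total RNA of 12 FACS-collected samples was hybridised to Affymetrix 3' expression arrays, and the deposited values are linear intensities, 1 per probe set and array. The only tool in the submitters' processing notes is MAS5, with no version; the background settings and detection calls are not given in the sources used here. Every array had the same trimmed mean, so the deposited intensity scaling was kept. Groups and replicate numbers come from the sample titles.

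Of 45101 probe sets, 64 controls, 932 with several gene symbols and 9160 with none were left out. Values under the 25th percentile of the table, 30.7 units, were set to it before log2, and 24949 probe sets over the table median, 92.0, on at least 3 arrays were tested. One limma fit (limma 3.58.1, R 4.3.3; lmFit and eBayes with an intensity trend, tested on simulated data) held 4 group means and 8 residual degrees of freedom, with Benjamini-Hochberg adjustment over all probe sets tested. Each SE therefore takes in the spread of all 4 groups, PGCLC included, and adjusted p-values for PGCLCs may be too small. Where the SLC or RS arrays spread more, as for Nodal 1422058_at and Gdf3 1449288_at, those of PGCLC minus PGC may be too large. Folds are differences of mean log2 signal. A fold is written "at least" where the lower group had arrays at the floor, the higher had none, and mean signals gave a ratio at least as large. A gene outside the 6 was read on the brightest of its probe sets by mean signal, and named by a fixed rule: the 3 with the largest absolute log2 difference in a list and comparison, and the 3 with the highest r in the search for like genes. The 6 genes, the pathway lists and the marker lists were chosen with earlier results of these data known. Replicate numbers did not pair arrays (correlations of deviations -0.05 to 0.08). Scaling, floor, filter, trend, block and each array left out were tried as alternatives. Promoter sequences are those of RefSeq on GRCm38.p6, with entries for 3 of 6 genes. A p over the threshold does not show that values were equal.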

Additional observations from a re-analysis of the deposited data

Results flagged for a closer look

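A contrast of the cultured minus animal-derived differences at the 2 stages was called for 5 of the 10 probe sets in the limma fit over 12 arrays. Over all probe sets, 30.1% were called in it. Of the 5, Tdgf1 and Lefty1 had most SLC and RS values above the floor, while Lefty2 and both Fgf4 probe sets did not. The contrast is the PGCLC minus PGC difference less the SLC minus RS difference, in log2 units. It was 3.88 for Tdgf1 (SE 0.90, adjusted p = 0.00465), with higher signal in 3 of 3 PGCLC arrays than in any PGC array and lower signal in 3 of 3 SLC arrays than in any RS array. For Lefty1 it was -4.24 (SE 0.78, adjusted p = 0.00109), with the 3 PGCLC arrays below the PGC arrays and the 3 SLC arrays above the RS arrays. For Lefty2 it was -1.26 (SE 0.40, adjusted p = 0.0243), with most SLC and RS values under the floor, and the call was lost under 8 of 21 alternatives, with adjusted p up to 0.324. The Lefty2 value mostly restates its PGCLC minus PGC difference of -1.31, since its SLC minus RS difference was -0.05. Fgf4 had 4.65 on 1420085_at (SE 1.03, adjusted p = 0.00356) and 4.57 on 1420086_x_at (SE 1.02, adjusted p = 0.00385). These 2 values restate the PGCLC minus PGC difference and are no separate evidence of a difference between stages: the probe sets passed the filter through the 3 PGCLC arrays alone, and all SLC, RS and PGC values lay under the floor except SLC replicate 3 on 1420086_x_at.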

How the results depend on the processing

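For SLC minus PGCLC every alternative kept the direction and the call of each of the 10 probe sets; with 1 probe set a gene, 6 were tested and 6 called. The other counts moved. For PGCLC minus PGC the 6 probe sets called became 3 with the floor at the 10th percentile and 0 with only the 6 arrays compared (8 at an unadjusted p under 0.05), and 4 to 6 with an array left out. The calls of Lefty1 and of Fgf4 1450282_at were each lost under 13 alternatives, among them quantile normalization, no filter and no intensity trend. For SLC minus RS the 1 called became 2 under quantile normalization, 2 under median centring, 3 with the floor at the 10th percentile, and 1 to 2 with an array left out (2 without RS replicate 2 or SLC replicate 2), the added call being Nodal 1422058_at, with Nodal 1422057_at at the lower floor. For RS minus PGC the call of Tdgf1 was lost under 12 alternatives, with log2 differences of -1.06 to -1.72. Other pathway genes called in PGCLC minus PGC were 1 for Nodal and activin, and 0 under quantile normalization, 2 at the lower floor, 2 with 16 added and no floor, 0 on 6 arrays (7 at an unadjusted p under 0.05), and 0 to 3 with an array left out (0 without PGC replicate 2 or 3 or PGCLC replicate 3, 3 without PGCLC replicate 2). For FGF the count was 0, and 1 under median centring, 1 with the floor at the 40th percentile, 1 with 16 added, and 0 to 2 with an array left out (2 without PGCLC replicate 2). The replicate numbers did not pair arrays, and a replicate block left the counts of the 6 genes' probe sets at 6, 1, 10 and 7 and gave 1 FGF gene in place of 0. Over all probe sets, 2705 were called in PGCLC minus PGC, 324 on 6 arrays and 1677, 4770 and 1620 without PGCLC replicates 1, 2 and 3.

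Scaling moved the median of all probe sets from 0.02 to -0.07 (quantile) and -0.23 (median centring) in PGCLC minus PGC, and from -0.05 to -0.28 and -0.29 in SLC minus RS. The share of calls that were higher was 87.4% in PGCLC minus PGC, and 73.2% and 51.8% under these scalings; in SLC minus RS it was 85.8%, and 54.8% and 56.7%. In the stage contrast the call of Lefty2 was lost under 8 alternatives. None of the differences that changed sign was called. In PGCLC minus PGC, Nodal 1422057_at (0.04) was -0.18 under quantile normalization, -0.26 under median centring and -0.19 to 0.30 with an array left out (lowest without PGCLC replicate 1), and Gdf3 1460057_at (-0.02) was -0.19 to 0.17 with an array left out (0.003 without PGC replicate 2, highest without PGCLC replicate 2). In SLC minus RS, Lefty2 (-0.05) was 0.16 without RS replicate 2 and 0.04 without SLC replicate 2 or 3, and Fgf4 1450282_at (0.49) was -0.030 to 1.08 with an array left out (lowest without SLC replicate 1). In the stage contrast, Gdf3 1460057_at (0.04) was -0.10 under quantile normalization, -0.16 under median centring, -0.022 with the floor at the 40th percentile, and -0.12 to 0.23 with an array left out (-0.022 without RS replicate 2, lowest without PGCLC replicate 1), and Gdf3 1449288_at (0.16) was -0.21 at that floor and -0.011 to 0.43 with an array left out (lowest without SLC replicate 2). The cause of these changes was not tested. Background correction could not be redone from the deposited values, and signals under the floor have no order.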
